A study of Mus musculus with 6 samples.

Results

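The genes described here are 10 leukocyte and phagocyte genes, Ptprc, Coro1a, Laptm5, Cd68, Ctss, Lyz2, Mpeg1, Ms4a7, Ms4a4d and Tgfbi, measured by 21 probe sets among 34945 probe sets with 1 gene symbol. For each gene the probe set with the highest mean signal over the arrays was used, and all 10 were among the 13043 genes that passed the signal filter. The genes were picked from these arrays because several of them were high in diabetic and AAT-treated fat, so their differences from normoglycemic fat are a description and carry no test. The RNA came from fat of NOD mice, a strain with spontaneous autoimmune diabetes, and was hybridised to 6 Affymetrix mouse arrays, 2 for each of 3 groups. The AAT-treated group (AAT) was given alpha-1-antitrypsin, a serum protease inhibitor, and had returned stably to a state in which no insulin was needed. The diabetic group (DIA) had blood glucose above 300 mg/dl for 3 consecutive days. The normoglycemic group (NOR) consisted of females of 10 weeks. The labels give no dose, sex or age for the AAT-treated and diabetic mice and no fat depot, and whether each array holds RNA of its own mouse is not stated there, so age and group cannot be told apart and the spread between arrays may be technical.

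Fat holds many resident and recruited leukocytes, above all macrophages, which surround dying adipocytes, take them up and digest them in lysosomes. Ptprc encodes CD45, the phosphatase on the surface of nearly all nucleated blood cells. Coro1a is an actin-binding coronin of blood cells, and Laptm5 is a lysosomal membrane protein of the same lineages. Cd68, the lysosomal glycoprotein used to stain macrophages, the protease gene Ctss (cathepsin S), the lysozyme gene Lyz2 and the pore-forming Mpeg1 (perforin-2) serve uptake and digestion. Ms4a7 and Ms4a4d are tetraspanning membrane proteins of the MS4A family, and Tgfbi is a secreted matrix protein induced by TGF-beta that macrophages and stromal cells make. In whole tissue, more cells of a type and more RNA per cell cannot be told apart.

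The blood-cell genes of this set are often controlled through the ETS factor PU.1, whose sites contain a GAGGAA core. The letters GAGGAA, or TTCCTC on the other strand, occurred in the 250 bases before the annotated transcript start in 4 of the 13 windows that RefSeq (GRCm38.p6) lists for the 10 genes (30.77%, 1 window each of Ptprc, Laptm5, Ctss and Cd68). Of all 32851 windows of that length, 23.25% held them, so the share among the 10 genes was close to that of promoters in general. The E-box CACGTG was in 0 of the 13 windows (6.02% of all), and the AP-1 letters TGANTCA, which read the same on both strands, were in 2 (6.75% of all), 1 of Cd68 and 1 of Ms4a7. A match describes the letters of the window and not a bound site. The start meant here is that of a listed transcript, and 5 of the 13 windows, those of Ptprc and Laptm5 among them, lie inside the span of their own gene in the RefSeq gene table. Of the 8 windows outside it, those of Ctss and Cd68 held the letters. Both are shown in full, since Ctss was high in AAT-treated and diabetic fat and Cd68 was not, with GAGGAA in capitals, 5′ to 3′ on the strand of the gene. They are Ctss at chr3:95526536-95526785 (plus strand) and Cd68 at chr11:69666171-69666420 (minus strand).
Ctss: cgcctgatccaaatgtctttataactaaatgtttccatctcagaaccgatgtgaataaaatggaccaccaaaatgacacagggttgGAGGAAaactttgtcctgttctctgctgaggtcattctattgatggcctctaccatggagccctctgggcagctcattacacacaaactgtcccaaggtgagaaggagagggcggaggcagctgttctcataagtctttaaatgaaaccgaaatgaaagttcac
Cd68: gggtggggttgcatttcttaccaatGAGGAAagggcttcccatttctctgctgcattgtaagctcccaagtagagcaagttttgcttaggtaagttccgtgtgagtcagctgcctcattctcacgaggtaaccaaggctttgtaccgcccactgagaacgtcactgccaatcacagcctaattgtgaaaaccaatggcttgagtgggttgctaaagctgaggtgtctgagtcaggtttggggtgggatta
The match began 164 bases before the transcript start in Ctss and 225 before it in Cd68.

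The values are MAS5 signals on a linear scale, and the trimmed mean was the same on each array as deposited. Log2 differences were taken of log2(signal + 74), which understates the change of weak signals, and are given ± the moderated standard error of limma (n = 2 arrays per group). Signals of different genes come from different probes and are not compared with each other. The arrays differed in RNA measures. The 3′ over 5′ signal ratio of the beta-actin control, which rises with degraded or incompletely copied RNA, was 9.08 and 5.87 in AAT-treated, 15.2 and 15.5 in diabetic and 3.63 and 4.30 in normoglycemic fat, and its part in the results was not tested beyond a fit with that ratio as a covariate. The signal of the added hybridisation controls (mean of 18 probe sets) was highest on NOR 1 at 128547, and ran from 25159 to 86286 on the other 5 arrays. Fabp4, the fatty acid carrier of adipocytes, was at 85600.2 or more on all arrays. NOR 1 and NOR 2 correlated at 0.837 across genes, below the 0.931 of NOR 2 with AAT 1.

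Of the 10 genes, 8 lay above normoglycemic fat on both arrays of AAT-treated fat, and 8 did so on both arrays of diabetic fat. They were the same 8 genes, all but Cd68 and Lyz2, so those 2 do not show the persistent rise named for the set. Over all 13043 genes tested, 16.0% lay above normoglycemic fat without overlap in AAT-treated fat, 20.2% in diabetic fat and 8.12% in both. The median log2 difference of the 10 genes was 1.32 between AAT-treated and normoglycemic fat and 1.51 between diabetic and normoglycemic fat, where the median of all genes was −0.03 and −0.06. By limma with Benjamini-Hochberg adjustment, 0 of 13043 genes (0.0%) passed an adjusted p of 0.05 in any of the 3 comparisons, and so 0 of the 10 genes did. At an unadjusted p under 0.05, 445 genes (3.41%) were higher and 224 (1.72%) lower in AAT-treated fat than in normoglycemic fat, and 688 (5.27%) were higher and 603 (4.62%) lower in diabetic fat than in normoglycemic fat. Between AAT-treated and diabetic fat 383 (2.94%) were higher and 239 (1.83%) lower in AAT-treated fat. Of the 18 probe sets of the 10 genes over the filter, 13 lay above normoglycemic fat without overlap in AAT-treated fat, with 1 below, and 13 in diabetic fat, with 0 below. Since 3 of the genes had more than 1 of these probe sets, the counts repeat genes. No share over all probe sets was computed beside them. The remaining 3 probe sets were too dim for the filter.

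**Figure D1:**
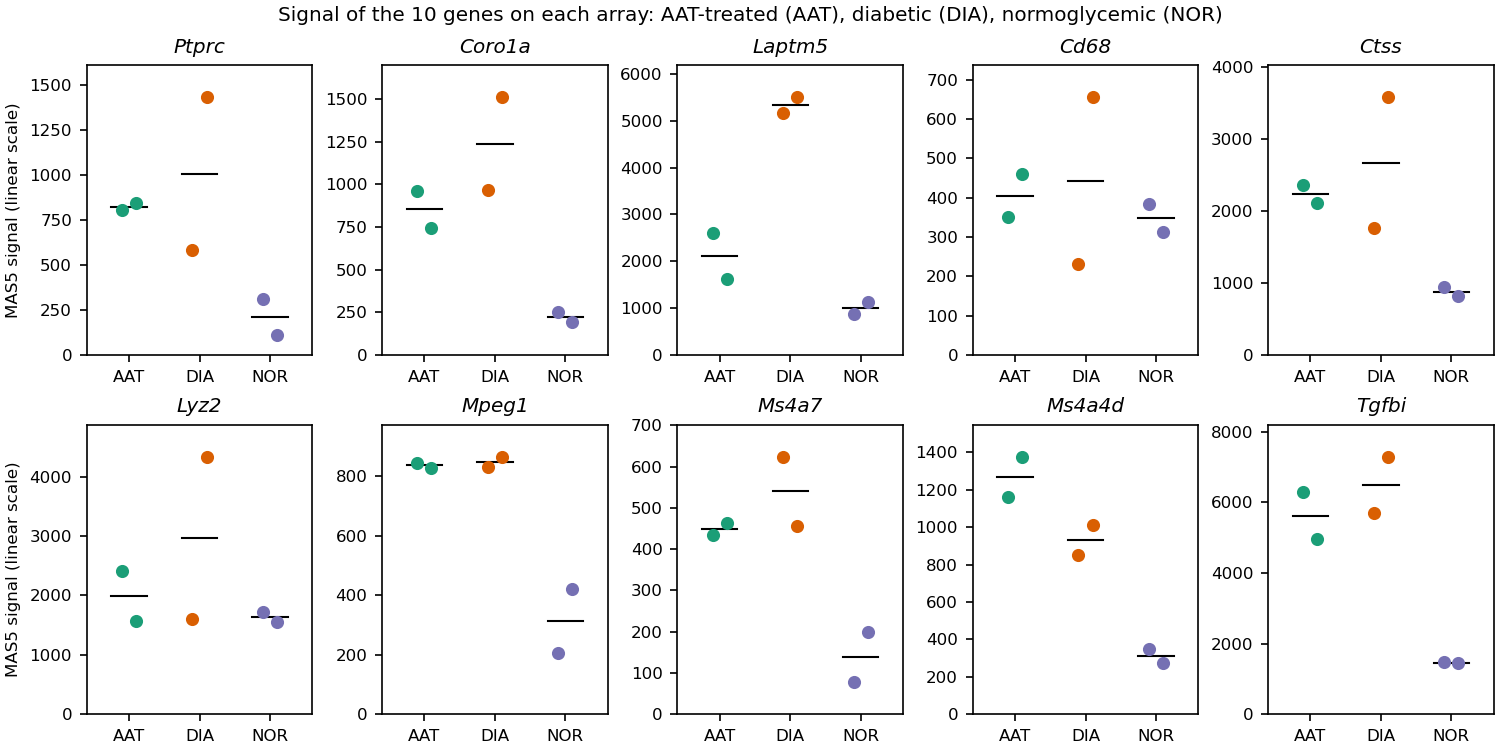
MAS5 signal (linear axis from 0) of each gene on the 6 arrays, with the group mean as a black line (n = 2 arrays per group). For 8 genes all AAT-treated and diabetic points lie above both normoglycemic points, while Cd68 and Lyz2 overlap.

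The pan-leukocyte genes come first. Ptprc had signals of 804 and 845 in AAT-treated, 583 and 1430.2 in diabetic and 311 and 113 in normoglycemic fat. All AAT-treated and diabetic arrays were above both normoglycemic ones, and the AAT-treated pair lay inside the wide range of the diabetic pair. The log2 difference of Ptprc was 1.75 ± 0.49 between AAT-treated and normoglycemic fat and 1.89 ± 0.49 between diabetic and normoglycemic fat. A dim second probe set of Ptprc, 1440165_at, stayed under the filter with signals of 36.5 to 213. It differed by −0.22 in AAT-treated and 0.15 in diabetic fat, with overlap in both.

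Coro1a, whose protein binds actin at the leukocyte cortex, had signals of 964 and 743 in AAT-treated, 968 and 1509.9 in diabetic and 253 and 191 in normoglycemic fat. The 3 groups did not overlap, and the first diabetic array was nearly level with the first AAT-treated one. The log2 difference was 1.64 ± 0.35 in AAT-treated and 2.13 ± 0.35 in diabetic fat, each against normoglycemic fat. The second probe set of Coro1a that passed the filter, 1416246_a_at, had differences of 1.46 and 1.40, again with no overlap with normoglycemic fat. Its AAT-treated and diabetic arrays overlapped, however, at 492 and 874 against 451 and 869. A dim probe set of Coro1a under the filter, 1435288_at, differed from normoglycemic fat by 0.25 in AAT-treated and 0.13 in diabetic fat, with overlap in both.

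Laptm5 had the highest log2 difference of the 10 genes between diabetic and normoglycemic fat. Its signals were 2596 and 1619 in AAT-treated, 5178 and 5500.4 in diabetic and 872 and 1126 in normoglycemic fat. The groups were ordered diabetic, AAT-treated, normoglycemic with no overlap, an order that only Coro1a shared among the 10 genes and that 1.87% of all genes had. Laptm5 differed by 0.9965 ± 0.34 between AAT-treated and normoglycemic fat and 2.34 ± 0.34 between diabetic and normoglycemic fat.

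The probe sets of Laptm5 disagreed. The one that stands for the gene, 1436905_x_at, has a name ending in x, which marks probe sets whose probes can also match other transcripts. The next brightest, 1426025_s_at, had signals of 1566 and 1465 in AAT-treated, 1672 and 3268 in diabetic and 1349 and 1125 in normoglycemic fat. The order of the groups was the same there, with log2 differences from normoglycemic fat of 0.28 in AAT-treated and 0.89 in diabetic fat. Against normoglycemic fat, the weaker 1417721_s_at differed by −0.18 in AAT-treated and 0.63 in diabetic fat. For 1459841_x_at the differences were −0.10 in AAT-treated and −0.30 in diabetic fat, and for 1447742_at they were −1.59 in AAT-treated, without overlap, and −0.40 in diabetic fat. With the mean of the 5 probe sets, Laptm5 differed by −0.12 in AAT-treated and 0.63 in diabetic fat.

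**Figure D2:**
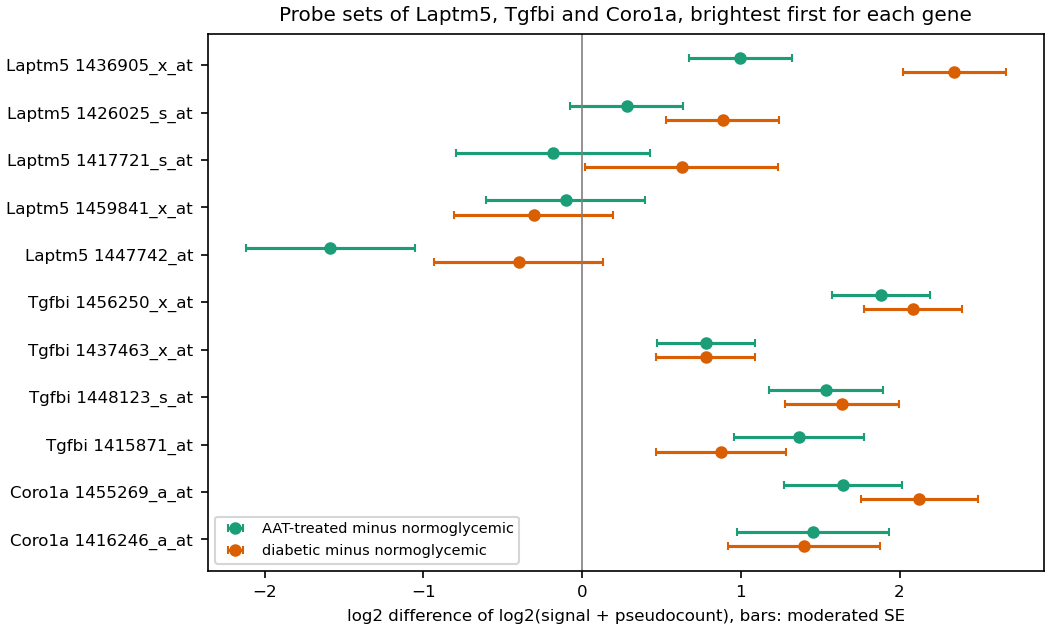
Log2 difference from normoglycemic fat (x axis, bars are the moderated SE of a fit over all probe sets, n = 2 arrays per group) for every probe set of Laptm5, Tgfbi and Coro1a over the signal filter. All probe sets of Tgfbi and Coro1a lie above 0 in both comparisons, while those of Laptm5 run from −1.59 to 2.34.

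Among the lysosomal and phagocyte genes, Ctss was high in both groups. Cathepsin S cuts the invariant chain in antigen-presenting cells and works outside the cell as an elastase. Ctss had signals of 2367 and 2114 in AAT-treated, 1757 and 3577 in diabetic and 938 and 816 in normoglycemic fat. Both normoglycemic arrays were below all others, and the AAT-treated pair again lay inside the diabetic range. Ctss differed by 1.28 ± 0.38 in AAT-treated and 1.45 ± 0.38 in diabetic fat. Without DIA 2 the diabetic difference of Ctss was 0.95.

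Mpeg1, the pore-forming protein that macrophages place in phagosomes, was even across the AAT-treated and diabetic arrays. It had signals of 845 and 828 in AAT-treated, 831 and 866 in diabetic and 207 and 419.8 in normoglycemic fat. The 4 were level with one another, while the normoglycemic pair was far apart. Its log2 difference was 1.29 ± 0.36 in AAT-treated and 1.31 ± 0.36 in diabetic fat.

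Cd68 and Lyz2 did not separate the groups. Cd68 had signals of 350.4 and 459 in AAT-treated, 231 and 655 in diabetic and 383 and 312 in normoglycemic fat. The diabetic pair held both the highest and the lowest of the 6 values. The log2 difference of Cd68 was 0.18 ± 0.46 in AAT-treated and 0.17 ± 0.46 in diabetic fat, each smaller than its error. Lyz2 had signals of 2414 and 1572 in AAT-treated, 1609 and 4338 in diabetic and 1724 and 1546 in normoglycemic fat. Only DIA 2 and AAT 1 stood above the normoglycemic pair by more than the distance between those 2 arrays. Its log2 difference was 0.25 ± 0.47 in AAT-treated and 0.68 ± 0.47 in diabetic fat, and without DIA 2 the diabetic difference was −0.02 for Lyz2 and −0.46 for Cd68. Each of these genes has a single probe set here, so no second probe set bears on them.

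The MS4A genes lie on chromosome 19, as does Mpeg1. Ms4a7, a gene of tissue macrophages, had signals of 434 and 464 in AAT-treated, 624 and 456 in diabetic and 77.5 and 200.3 in normoglycemic fat. It was the only one of the 10 genes with its highest value on DIA 1. The log2 difference was 1.36 ± 0.42 in AAT-treated and 1.58 ± 0.42 in diabetic fat. A dim second probe set, 1445365_at, stayed under the filter with signals of 38.3 to 114. It differed by −0.11 in AAT-treated fat, with overlap, and by 0.28 in diabetic fat, without overlap.

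Ms4a4d was the only one of the 10 genes that was higher in AAT-treated than in diabetic fat without overlap. It had signals of 1161 and 1377 in AAT-treated, 852 and 1011 in diabetic and 351 and 276 in normoglycemic fat. The groups were ordered AAT-treated, diabetic, normoglycemic. Ms4a4d differed by 1.80 ± 0.31 in AAT-treated and 1.38 ± 0.31 in diabetic fat.

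Tgfbi, the secreted matrix protein, had signals of 6292 and 4958 in AAT-treated, 5692 and 7295 in diabetic and 1472 and 1454 in normoglycemic fat. The 2 normoglycemic arrays were nearly equal and far below the other 4, which overlapped. The log2 difference was 1.88 ± 0.32 in AAT-treated and 2.08 ± 0.32 in diabetic fat. Its 3 other probe sets, 1437463_x_at, 1448123_s_at and 1415871_at, were higher in both groups than in normoglycemic fat without overlap for Tgfbi too, with differences of 0.78, 1.53 and 1.37 in AAT-treated and 0.78, 1.64 and 0.88 in diabetic fat. The sizes thus varied between the 4 probe sets of Tgfbi, from 0.78 to 2.08, and the brightest gave the highest values.

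**Figure D3:**
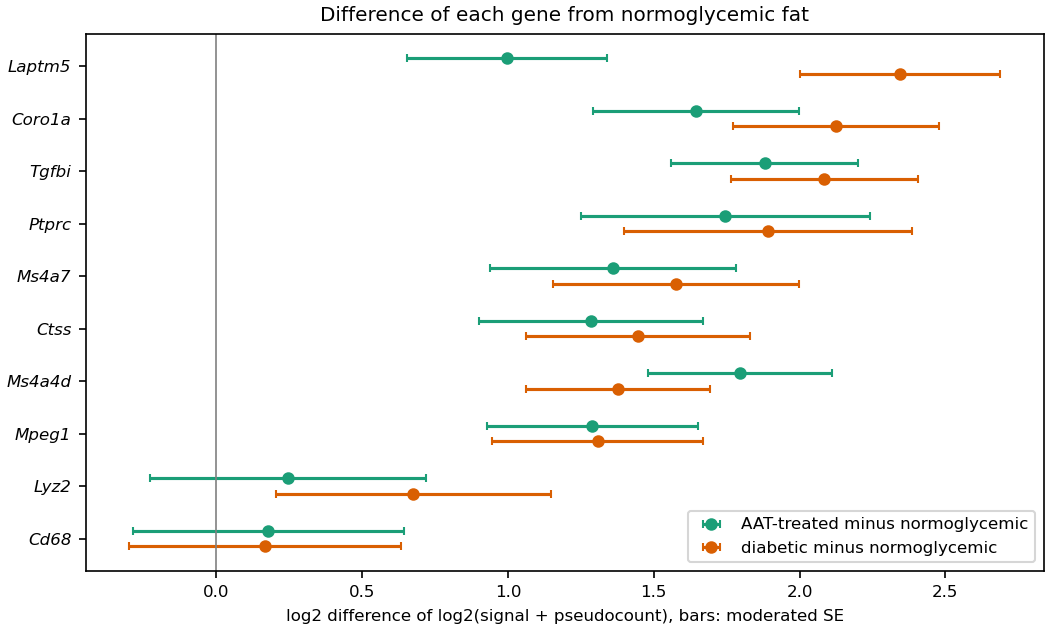
Log2 difference from normoglycemic fat (x axis, log2(signal + 74), bars are the moderated SE, n = 2 arrays per group) for the 10 genes, ordered by the diabetic difference. Laptm5 has the widest gap between AAT-treated (0.9965) and diabetic (2.34), and Cd68 and Lyz2 sit nearest to 0.

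Set against each other, AAT-treated and diabetic fat were close for most of the 10 genes. In AAT-treated fat 2 genes were lower without overlap (Laptm5 and Coro1a), where 15.9% of all genes were, 1 was higher (Ms4a4d), where 17.9% of all genes were, and 7 overlapped. The median log2 difference was −0.18, and that of all genes 0.01. Laptm5 differed by −1.35 ± 0.34, Coro1a by −0.48 ± 0.35 and Ms4a4d by 0.42 ± 0.31. Lyz2 differed by −0.43 ± 0.47, Ms4a7 by −0.22 ± 0.42, Tgfbi by −0.20 ± 0.32 and Ctss by −0.16 ± 0.38. Ptprc differed by −0.15 ± 0.49, Mpeg1 by −0.02 ± 0.36 and Cd68 by 0.01 ± 0.46. Without DIA 2, Coro1a differed by −0.18. Apart from Laptm5, Coro1a and Ms4a4d each difference was smaller than its error. Both comparisons with normoglycemic fat share the 2 normoglycemic arrays.

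A single array led most of the genes. DIA 2 had the highest value for 8 of the 10 genes, where it had the highest value for 16.6% of all genes. NOR 2 had the lowest value for 6 genes, NOR 1 for 3 and DIA 1 for 1, Cd68. The mean of the 10 genes, each centred on its own mean, was 0.40 and 0.26 in AAT-treated, 0.30 and 0.87 in diabetic and −0.90 and −0.92 in normoglycemic fat on the log2 scale. DIA 1 was thus level with the AAT-treated arrays, and DIA 2 was above all others. Without DIA 2 the median difference between AAT-treated and diabetic fat was 0.14, and without DIA 1 it was −0.64, so the direction of that comparison turned on 1 array.

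The beta-actin ratio was also higher on every AAT-treated and diabetic array than on both normoglycemic arrays. The same ratio of the Gapdh control did not split the groups in that way. It was 2.31 and 0.79 in AAT-treated, 2.46 and 4.63 in diabetic and 0.91 and 0.95 in normoglycemic fat. By Gapdh, AAT 2 was thus below both normoglycemic arrays and DIA 2 was highest. The fits that follow use the beta-actin ratio. With the log2 beta-actin ratio as a covariate, Laptm5 differed from normoglycemic fat by 0.02 in AAT-treated and 0.20 in diabetic fat. Lyz2 differed by −0.49 in AAT-treated and −0.95 in diabetic fat. The diabetic difference was 0.37 for Mpeg1, 0.95 for Ms4a7 and 1.14 for Tgfbi in that fit. It was larger than without the covariate for Ptprc (3.02), Ms4a4d (2.27) and Cd68 (1.16). Except for Lyz2, the 10 genes kept a difference above 0 in both groups. The beta-actin ratio did not overlap between the 3 groups, and such a fit takes its slope from the gaps between arrays of 1 group. That gap was widest in AAT-treated fat (9.08 and 5.87) and small in diabetic fat (15.2 and 15.5). The fit therefore cannot separate the ratio from the group, here or for the gene lists below.

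**Figure D4:**
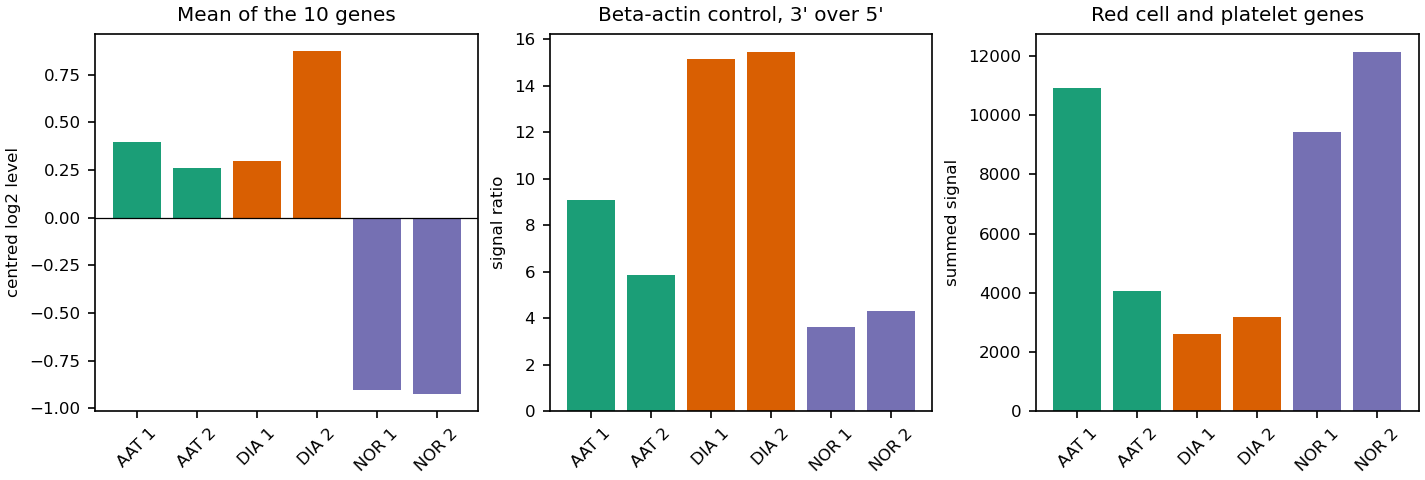
Mean of the 10 genes on each array (left, log2 scale, each gene centred on its mean), 3′ over 5′ ratio of the beta-actin control (middle) and summed signal of 5 red cell and platelet genes (right), 1 bar per array. The 10 genes are low on both normoglycemic arrays and highest on DIA 2, and the beta-actin ratio is highest on both diabetic arrays.

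Other genes of leukocytes, listed by their role, had medians nearer to that of all genes. In none of the lists that follow did a gene pass an adjusted p of 0.05 (limma). Of 35 other pan-leukocyte genes listed, 26 passed the filter. In AAT-treated fat 10 of the 26 were higher than in normoglycemic fat without overlap (38.5%, against 16.0% of all genes). There 2 were lower (7.69%, against 16.1%), and the median was 0.49. In diabetic fat 7 were higher and 0 lower, which is 26.9% against the 20.2% of all genes, with a median of 0.29. The genes of this list with the smallest p were Evi2a, a membrane protein of blood cells, at 1.44 ± 0.42 in diabetic fat, the lymphocyte phosphatase Ptpn22 at 1.48 ± 0.47 and the selectin ligand Selplg at 1.36 ± 0.46, with adjusted p (limma) of 0.467, 0.482 and 0.482. In AAT-treated fat they differed from normoglycemic fat by 0.85, 1.22 and 1.32. The brightest of the list, Lsp1 and Arhgdib, both regulators of the leukocyte cytoskeleton, differed in diabetic fat by 0.47 ± 0.43 and 0.39 ± 0.36. The diabetic median of this list was 0.04 without DIA 2, 0.72 without DIA 1 and 0.17 without NOR 2. The AAT-treated median was 0.10 without AAT 2 and 0.21 without NOR 2.

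Of 30 other phagocyte genes listed, 25 passed the filter. Of the 25, 9 were higher than in normoglycemic fat without overlap in AAT-treated fat, and 9 were in diabetic fat. That is 36.0% against 16.0% and 20.2% of all genes. Lower without overlap were 3 of the 25 in AAT-treated fat (against 16.1% of all genes) and 1 in diabetic fat (against 24.5%). The medians were 0.27 in AAT-treated and 0.32 in diabetic fat, and the diabetic one was 0.04 without NOR 2 and 0.20 without DIA 2. Csf1r, the receptor for the macrophage growth factor, had signals of 4951 and 1944 in AAT-treated, 5459.6 and 7004 in diabetic and 1566 and 1680.2 in normoglycemic fat. Its groups did not overlap between AAT-treated or diabetic and normoglycemic fat, with differences of 0.91 ± 0.45 and 1.88 ± 0.45. Lgals3, the lectin galectin-3, differed by 0.99 ± 0.36 in AAT-treated and 0.59 ± 0.36 in diabetic fat. The NADPH oxidase subunit Cyba differed by 1.79 ± 0.72 and 1.86 ± 0.72, and the chemokine receptor Ccr2 by 1.17 ± 0.61 and 1.49 ± 0.61.

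Of 10 macrophage markers, of which the phagocyte list holds 5, 9 passed the filter. Without overlap, 5 were higher in AAT-treated (55.6%, against 16.0% of all genes) and 6 in diabetic (66.7%, against 20.2%) than in normoglycemic fat. In AAT-treated fat 1 was lower without overlap (11.1%, against 16.1% of all genes), and in diabetic fat 0 were (against 24.5%). By sign, 3 of the 9 markers were below 0 in AAT-treated and 1 in diabetic fat. Their summed signal was 15880 and 9048 in AAT-treated, 16256 and 25646 in diabetic and 6789 and 6909 in normoglycemic fat, so the groups did not overlap. The medians were 0.91 in AAT-treated and 1.05 in diabetic fat, against 0.18 and −0.32 with the beta-actin ratio as a covariate. The AAT-treated median was 0.25 without AAT 1 and 1.40 without AAT 2, and the diabetic one 2.06 without DIA 1. The complement genes C1qb and C1qc differed by 1.11 ± 0.49 and 2.10 ± 0.58 in AAT-treated and by 2.12 ± 0.49 and 1.89 ± 0.58 in diabetic fat. Mertk differed by 0.35 ± 0.59 in AAT-treated fat, with overlap, and by 1.05 ± 0.59 in diabetic fat, without overlap.

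Of 24 lysosomal genes that most cells use, all 20 with a probe set passed the filter. In AAT-treated fat 4 were higher than in normoglycemic fat without overlap (20.0%, against 16.0% of all genes) and 2 lower (10.0%, against 16.1% of all genes), with a median of 0.17. In diabetic fat 10 of the 20 were higher (against 20.2% of all genes) and 1 lower (5.0%, against 24.5% of all genes), with a median of 0.81. Progranulin (Grn) differed by 0.77 ± 0.55 in AAT-treated and 1.75 ± 0.55 in diabetic fat, and the lysosomal membrane gene Lamp2 by 1.04 ± 0.41 and 1.27 ± 0.41. Laptm4a, the relative of Laptm5 found in most cells, was lower without overlap in both groups, at −0.33 ± 0.31 in AAT-treated and −1.20 ± 0.31 in diabetic fat. Leaving out 1 array, the AAT-treated median of this list ran from −0.32 (without AAT 1) to 0.82 (without AAT 2), and was −0.16 without NOR 1 and 0.64 without NOR 2. The diabetic one was 0.52 without DIA 2. With the beta-actin ratio as a covariate the medians of the lysosomal list turned to −1.23 in AAT-treated and −2.09 in diabetic fat. The cystatins Cstb and Cst3, inhibitors of cathepsins such as cathepsin S, differed by −0.08 ± 0.32 and 0.20 ± 0.46 in AAT-treated and by −0.18 ± 0.32 and −0.12 ± 0.46 in diabetic fat.

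Relatives of single genes were mixed. Of 16 other MS4A family genes 11 passed the filter, with 5 higher without overlap in AAT-treated (45.5%, against 16.0% of all genes) and 4 in diabetic fat (36.4%, against 20.2%) than in normoglycemic fat. Their medians were 0.33 in AAT-treated and 0.18 in diabetic fat, at 0.03 without AAT 2 or without NOR 2 for AAT-treated fat. For diabetic fat the median was −0.26 without DIA 2, −0.13 without NOR 2, 0.39 without DIA 1 and 0.47 without NOR 1. Ms4a6d and Ms4a6b, also found in macrophages, differed by 1.08 ± 0.60 and 1.10 ± 0.45 in AAT-treated and by 1.75 ± 0.60 and 1.17 ± 0.45 in diabetic fat. Of 6 other coronins 5 passed, with medians of 0.42 in AAT-treated and 0.67 in diabetic fat. Without overlap, 3 of the 5 were higher in AAT-treated fat (60.0%, against 16.0% of all genes). In diabetic fat 2 of the 5 were higher (against 20.2% of all genes) and 1 lower (against 24.5%). Coro1c differed by 0.77 ± 0.33 in AAT-treated and 0.67 ± 0.33 in diabetic fat, Coro7 by 0.42 ± 0.34 and 0.84 ± 0.34, and Coro1b by 0.22 ± 0.31 and −0.32 ± 0.31. The AAT-treated median of the coronins was 0.16 without AAT 1, and the diabetic one 0.40 without DIA 2 and 0.13 without NOR 1. With the beta-actin ratio as a covariate they were −0.34 in AAT-treated and −0.83 in diabetic fat. Of 17 TGF-beta pathway and target genes, 8 were higher without overlap in AAT-treated fat (47.1%, against 16.0% of all genes) and 5 in diabetic fat (29.4%, against 20.2%). Their medians were 0.57 in AAT-treated and 0.22 in diabetic fat, at 0.29 and 0.09 without NOR 1 and at 0.94 and 0.78 without NOR 2. Postn (periostin), the matrix protein most closely related to Tgfbi, differed by 1.89 ± 0.54 in AAT-treated and −0.07 ± 0.54 in diabetic fat.

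**Figure D5:**
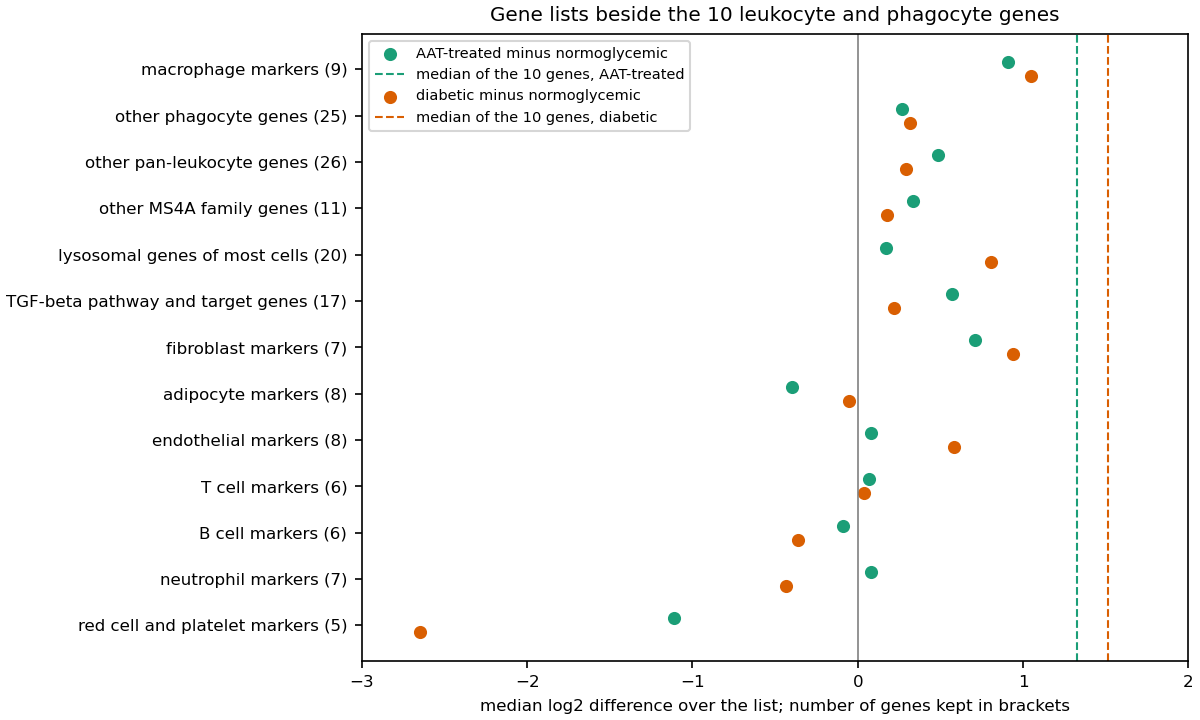
Median log2 difference from normoglycemic fat over the genes of each list that passed the filter (number in brackets), for AAT-treated and diabetic fat, with dashed lines at the medians of the 10 genes (1.32 and 1.51). All lists shown lie to the left of the 10 genes, and macrophage markers lie nearest.

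Markers of other cells were examined in the same way, and their part in the values of the 10 genes was not tested. Of 11 T cell markers with a probe set 6 passed the filter, with a summed signal of 2746 and 3709.5 in AAT-treated, 2451 and 3766 in diabetic and 4095 and 1937 in normoglycemic fat. Those ranges overlap. Of the T cell receptor complex, the chain Cd247 passed the filter. Cd247 was at 160 and 263 in AAT-treated, 34.5 and 172 in diabetic and 378 and 93.1 in normoglycemic fat, with overlap. Its log2 difference from normoglycemic fat was 0.03 in AAT-treated and −0.75 in diabetic fat. The chains Cd3d, Cd3g and Cd3e were under the filter on average. Cd3d was at 289 and 306 in AAT-treated, 45.6 and 132 in diabetic and 91.8 and 36.4 in normoglycemic fat, and Cd3g at 170.1 and 310.1 in AAT-treated, 66.2 and 238 in diabetic and 56.4 and 133 in normoglycemic fat. Both chains were above normoglycemic fat without overlap in AAT-treated fat, whereas Cd3e was at 68.6 and 67.4 in AAT-treated, 94.2 and 187 in diabetic and 112 and 36.3 in normoglycemic fat, with overlap. Of 10 B cell markers 6 passed. Their sum was 30384 and 11563 in AAT-treated, 1878 and 5524 in diabetic and 4022 and 2245 in normoglycemic fat, and Ighm and Jchain made up most of it in AAT-treated fat. Against normoglycemic fat the medians of the 6 were −0.09 in AAT-treated and −0.36 in diabetic fat, and each changed sign when 1 array was left out. Without overlap, Ighm and Jchain were higher (33.3%, against 16.0% of all genes) and Pax5 lower (16.7%, against 16.1%) in AAT-treated fat. In diabetic fat 0 were higher (against 20.2%), and Pax5 and Blk were lower (33.3%, against 24.5%). Neutrophil markers (7 of 11) summed to 1053 and 2001 in AAT-treated, 1719.9 and 1338 in diabetic and 2923 and 1271 in normoglycemic fat. Of the 7 neutrophil markers, 3 were higher (42.9%, against 16.0% of all genes) and 2 lower (28.6%, against 16.1%) without overlap in AAT-treated fat. In diabetic fat 2 were higher (28.6%, against 20.2%) and 3 lower (42.9%, against 24.5%). Csf3r, the receptor for the neutrophil growth factor G-CSF, was at 150.1 and 236 in AAT-treated, 448 and 255 in diabetic and 124 and 54.7 in normoglycemic fat. It differed by 0.72 ± 0.52 in AAT-treated and 1.37 ± 0.52 in diabetic fat without overlap. The granule gene Ltf differed by −1.30 ± 0.64 in AAT-treated and −1.14 ± 0.64 in diabetic fat, and S100a9, under the filter, ranged over all arrays from 18.4 to 287.

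Fibroblast markers were high in the same groups as the 10 genes. All 7 that passed were above 0 in AAT-treated fat, 5 of them without overlap (71.4%, against 16.0% of all genes), with a median of 0.71. In diabetic fat 6 were above 0, 5 without overlap (71.4%, against 20.2%), with a median of 0.94. The diabetic median was 0.42 without DIA 2, 1.70 without DIA 1 and −0.24 with the beta-actin ratio as a covariate. Their sum was 53554 and 49847 in AAT-treated, 36651 and 67234 in diabetic and 33853 and 26832 in normoglycemic fat. Adipocyte markers (8 of 8 with a probe set) had medians of −0.40 in AAT-treated and −0.05 in diabetic fat. The AAT-treated one was −0.72 without AAT 1 and −0.13 without AAT 2, and the diabetic one −0.92 without DIA 2, 0.32 without DIA 1 and −0.31 without NOR 1. All 6 mesothelial markers were above 0 in AAT-treated fat (median 0.80), 3 of them without overlap (against 16.0% of all genes). In diabetic fat 5 of the 6 were above 0 (median 0.32), 2 of them without overlap (against 20.2%). The sum of the 6 markers was 6172 and 11031 in AAT-treated, 5032 and 4510.0 in diabetic and 4564 and 3194 in normoglycemic fat. The diabetic median was 0.17 without DIA 1, 0.52 without NOR 1 and 0.11 without NOR 2. The 8 endothelial markers set arrays of 1 group far apart, with sums of 21307 and 4447 in AAT-treated, 15257 and 9474 in diabetic and 2721 and 23374 in normoglycemic fat. Their median was 0.08 in AAT-treated and 0.58 in diabetic fat, and each changed sign when 1 array was left out. The 5 red cell and platelet genes that passed were all below 0 in both groups, with medians of −1.11 in AAT-treated and −2.65 in diabetic fat. Without AAT 2 the AAT-treated median was −0.59. Their sum was 10905 and 4047 in AAT-treated, 2602 and 3196 in diabetic and 9436 and 12148 in normoglycemic fat.

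Genes with a profile like the mean of the 10 were looked for among 7977 other genes whose log2 range over the arrays was at least 1. Over the 6 arrays, Pearson's r with the mean of the 10 genes was 0.994 for Gtpbp1, 0.983 for Rnase4, 0.981 for Penk, 0.976 for Trim11 and 0.976 for Bmp1, and 92 genes had an r over 0.9. With 6 arrays in 3 groups that share their RNA measures these coefficients are a description. Gtpbp1, a GTP-binding protein, had signals of 321 and 292 in AAT-treated, 311 and 498 in diabetic and 44.7 and 66.0 in normoglycemic fat. Rnase4, a secreted ribonuclease, had signals of 9428 and 9390.5 in AAT-treated, 10639 and 12370 in diabetic and 3748 and 3286 in normoglycemic fat.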

How the data were processed

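Per the labels' protocols, fat RNA was extracted with Trizol and labelled in a single cycle Affymetrix reaction. The authors deposited MAS5 signal intensities, linear and not on a log scale, for 45101 probe sets on each array. The tool is named in the submitters' processing notes, without a version. Their trimmed mean was 500 on every array, and no further scaling was done. Precision is limited by having 2 arrays a group.

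Probe sets were named from the platform annotation (34945 with 1 symbol, of which 34741 matched the RefSeq gene table). Those with several symbols (932) or none (9160) and 64 controls were not used. Values were taken as log2(signal + 74), 74 being the 25th percentile, and probe sets with a mean signal above 164 (the 40th percentile) were kept. Group means over all 6 arrays were fitted with limma 3.58.1 in R 4.3.3 (eBayes with trend, 2-sided, Benjamini-Hochberg), with 3 residual and 5.36 prior degrees of freedom. On simulated data with 200 changed genes of 13043, the diabetic against normoglycemic step recovered 3.8% of changes of 1 on the log2 scale, 66% of changes of 2 and 96.6% of changes of 3, with 11.9 false calls a run. The noise was drawn separately for each gene, so deviations shared by many genes of an array were not simulated. These rates may therefore not carry over to the real arrays.

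The 10 genes and the gene lists were chosen with earlier results of these data known. From each list, genes were named from at most the 3 with the smallest p between diabetic and normoglycemic fat and the 3 with the highest mean signal. Cd3d, Cd3e, Cd3g and S100a9 fall outside this rule and were chosen after their values were seen. Genes most like the 10 were the 5 with the highest Pearson r. The alternatives tried were 2 other pseudocounts, no filter, quantile normalization, the mean of probe sets, robust eBayes, 2 covariates (beta-actin ratio, hybridisation controls), a replicate block, leaving out each array and, added after seeing the data, no probe sets ending in x.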

Additional observations from a re-analysis of the deposited data

How the results depend on the processing

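Over 16 alternatives, the median of the 10 genes stayed above 0 in AAT-treated and in diabetic fat against normoglycemic fat. The diabetic against normoglycemic median (1.51) was 1.22 with the pseudocount at the 50th percentile and 1.12 with the beta-actin ratio as a covariate, and ran from 1.29 to 1.72 without 1 array. The AAT-treated against normoglycemic median (1.32) ran from 1.15 to 1.36 without 1 array. The AAT-treated against diabetic median (−0.18) ran from −0.64 to 0.14 without 1 array. For 8 genes the sign against normoglycemic fat held in each of these alternatives in diabetic fat; Cd68 turned without DIA 2 (−0.46), and Lyz2 without DIA 2 (−0.02) and with the beta-actin covariate (−0.95). In AAT-treated fat Laptm5 turned with the mean of probe sets (−0.12), and Lyz2 without AAT 1 (−0.05) and with the beta-actin covariate (−0.49); the other 8 held. Against diabetic fat, 8 of the 10 genes turned in at least 1 alternative, and Laptm5 and Coro1a did not. The cause was not tested. Genes past the adjusted threshold numbered 0 in each alternative, except 1 between AAT-treated and diabetic fat with no filter, and 0 to 3 between AAT-treated and normoglycemic fat without 1 array (3 without NOR 2). The labels do not say whether arrays with the same replicate number share an animal or day. The deviations of same-numbered arrays correlated at −0.12 (AAT and DIA), −0.51 (AAT and NOR) and 0.08 (DIA and NOR). With a replicate block, 0 genes passed in each comparison and the medians stayed at 1.51, 1.32 and −0.18. Without probe sets ending in x, Laptm5 was at 0.28 in AAT-treated and 0.89 in diabetic fat and Tgfbi at 1.53 and 1.64. With 2 arrays a group, changes of 1 on the log2 scale were rarely called in the simulation, whose noise was independent between genes.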
